A study of Mus musculus with 7 samples.

Results

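The deposited gene table was read here for small nucleolar RNAs (snoRNAs), small Cajal body RNAs (scaRNAs) and the host genes named for carrying them. Members were all genes whose symbol begins with Snora, Snord, Scarna or Snhg, together with Gas5, which gave 57 of 20643 genes: 42 small RNAs (12 Snora, 28 Snord and 2 Scarna) and 15 host genes (14 Snhg genes and Gas5). The rule used gene names and no measured value, but it was set with earlier results of these data known.

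Total RNA, depleted of ribosomal RNA, was sequenced from prospermatogonia, the male fetal germ cells, sorted as EGFP+ cells at 15.5 dpc (15 dpc in one label). There were 2 WT libraries (replicates 1 and 2), 2 H19Ter/H19Ter libraries (replicates 3 and 4) and 3 H19Ter+neo/H19Ter+neo libraries (replicates 5 to 7). Both mutant alleles carry a transcription terminator beside the H19/Igf2 imprinting control region. H19Ter+neo also keeps the Pgkneo selection cassette, which recombination in a mouse line with a Cre transgene at Hprt removed to give H19Ter. The homozygous mutant fetuses came from crosses of homozygous parents and carried an EGFP transgene driven by the Pou5f1 (Oct4) promoter from the TgOG2 line. The targeted mice descended from chimeras of 1 ES cell line, and the testes of several fetuses could be pooled before sorting. The sources used here do not give the cross of the WT fetuses, so genotype and line of origin cannot be told apart.

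Small nucleolar RNAs guide chemical changes to other RNAs. Box C/D snoRNAs (Snord) pair with ribosomal RNA to place 2′-O-methyl groups, box H/ACA snoRNAs (Snora) guide the change of uridine to pseudouridine, and scaRNAs do the same for spliceosomal RNAs in Cajal bodies. A few, such as U8 (Snord118) and U17 (Snora73b), take part in cutting the ribosomal RNA precursor instead. In mammals most are cut from introns of host genes, and many Snhg transcripts and Gas5 are noncoding hosts whose spliced RNA is degraded through nonsense-mediated decay.

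The sequences below are from some of the abundant small RNAs and of those with large differences. The Snord73 pair from a single host, of which only 1 member passed the test, follows, and then Scarna8. Snord15a, Snord13 and Snord58b, also abundant or with a large rise, are not printed. They are from GENCODE vM21 on GRCm38, written 5′ to 3′ as DNA. Capitals mark, in Snord members, a box C (ATGATGA or GTGATGA within the first 25 bases) and the last box D (CTGA within the last 20 bases), and, in the others, the last ACA within the last 10 bases. Searches used the RNA strand only.
Snora23: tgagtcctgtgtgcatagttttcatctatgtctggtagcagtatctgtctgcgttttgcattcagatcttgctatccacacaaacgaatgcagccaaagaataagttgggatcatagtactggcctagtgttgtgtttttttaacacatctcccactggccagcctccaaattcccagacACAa
Snora73b: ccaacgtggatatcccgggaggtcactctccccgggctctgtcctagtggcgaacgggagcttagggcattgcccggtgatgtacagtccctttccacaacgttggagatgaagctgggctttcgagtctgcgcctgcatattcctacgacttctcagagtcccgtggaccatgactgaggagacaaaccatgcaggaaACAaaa
Snora78: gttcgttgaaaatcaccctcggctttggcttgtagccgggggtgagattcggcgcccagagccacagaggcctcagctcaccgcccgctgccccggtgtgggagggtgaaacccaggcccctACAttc
Snord17: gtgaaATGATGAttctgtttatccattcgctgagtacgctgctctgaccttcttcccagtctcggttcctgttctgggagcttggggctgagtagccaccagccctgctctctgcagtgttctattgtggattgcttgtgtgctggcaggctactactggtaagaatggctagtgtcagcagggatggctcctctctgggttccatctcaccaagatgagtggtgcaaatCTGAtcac
Snord118: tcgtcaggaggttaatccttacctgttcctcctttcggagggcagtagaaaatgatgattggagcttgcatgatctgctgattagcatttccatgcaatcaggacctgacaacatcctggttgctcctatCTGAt
Snord104: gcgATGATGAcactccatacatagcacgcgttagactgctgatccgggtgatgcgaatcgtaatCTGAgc
Snord73a: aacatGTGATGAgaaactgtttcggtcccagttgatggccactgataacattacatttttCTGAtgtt
Snord73b: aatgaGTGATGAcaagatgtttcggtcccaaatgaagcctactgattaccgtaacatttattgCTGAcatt
Scarna8: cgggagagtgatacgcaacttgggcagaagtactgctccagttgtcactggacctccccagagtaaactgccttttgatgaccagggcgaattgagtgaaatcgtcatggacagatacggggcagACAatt

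Snora23 (chr7:110046364-110046547, plus strand) lies in an intron of Ipo7, Snord17 (chr2:144265979-144266216, minus strand) in an intron of Snx5, and Snora78 (chr17:24719676-24719803, minus strand) in an intron of Snhg9. Snora73b (chr4:132352322-132352526, minus strand) lies in introns of both Rcc1 and Snhg3. Snord73a (chr3:86138791-86138858) and Snord73b (chr3:86140618-86140688) lie on the minus strand in introns of Rps3a1. Scarna8 (chr4:86586453-86586583, minus strand) lies in an intron of Haus6. No gene spans Snord118 (chr11:69073427-69073561, plus strand) or Snord104 (chr11:106500993-106501062, plus strand) on its strand in this annotation. Boxes C and D as defined above both occurred in 21 of 28 Snord members (75.0%) and in 2.98% of 10513 annotated transcripts of 60 to 300 bases, those of the families themselves included. ACA near the 3′ end occurred in 12 of 12 Snora members and in 18.5% of those transcripts. In Snord118 only box D was found in its window.

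The table holds part of these families, and the rule takes in part of what it holds. In GENCODE vM21, 131 genes typed snoRNA or scaRNA had a value but lay outside the rule. Of 150 annotated genes named Snora, Snord or Scarna, 60 had a value in the table, 40 of them as members. Another 2 members, Snord73b and Snord94, have other names in that annotation. None of the 57 that lie wholly under an exon of another gene on their strand had a value, against 55 of the 77 with no base under such an exon. No small RNA member lies within Gas5 or Snhg1, so the snoRNAs these are known for carrying are not analysed here. RNA was sheared to 300 to 400 bases before library construction, whereas the small RNAs are 64 to 265 bases long. Reads from a mature small RNA and from the unspliced host intron around it cannot be told apart in these counts.

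Libraries held 37.5 to 51.2 M counted read pairs in WT and H19Ter/H19Ter, and 84.1 to 87.3 M in H19Ter+neo/H19Ter+neo, so depth and the H19Ter+neo genotype cannot be told apart. Each member rested on 13 to 95518 read pairs per library. Summed counts per M read pairs (CPM) of 13 male fetal germ cell markers were 4796 to 4954 in WT, 4550 to 4671 in H19Ter/H19Ter and 5161 to 5361 in H19Ter+neo/H19Ter+neo, so the genotypes did not overlap. Sertoli markers (7 of 8 with a value, Fshr not among them) summed to 18.2 to 18.9 CPM in WT, 21.4 to 25.3 in H19Ter/H19Ter and 15.7 to 20.7 in H19Ter+neo/H19Ter+neo. Leydig markers (5 of 6 with a value, Insl3 not among them) ranged from 5.46 to 29.8 and 8 interstitial and peritubular markers from 47.4 to 122, both highest in replicates 3 and 5. The endothelial markers (5 of 6 with a value, Esam not among them) summed to 53.7 to 59.7 CPM in WT, 48.9 to 52.4 in H19Ter/H19Ter and 41.1 to 43.2 in H19Ter+neo/H19Ter+neo. The erythroid marker Alas2 (Hbb-bs, Hbb-bt and Hba-a1 had no value) had 1.66 to 3.53 CPM in WT and H19Ter/H19Ter and 4.34 to 5.82 in H19Ter+neo/H19Ter+neo, and leukocyte markers (2 of 5 with a value, Csf1r, Ptprc and C1qa not among them) summed to 4.18 to 6.09 in all libraries. Mitochondrial genes took 4.05% to 4.55% of read pairs in WT and H19Ter/H19Ter and 4.83% to 5.80% in H19Ter+neo/H19Ter+neo. Single markers did not always follow their sum. In H19Ter+neo/H19Ter+neo against WT, 3 of 5 endothelial markers rose and 1 fell (limma adjusted p under 0.05), with a median log2 difference of 0.37. Of 13 germ cell markers, 5 rose and 3 fell, with a median of -0.13, and 1 of 2 leukocyte markers rose. Of all genes, 27.7% rose and 26.7% fell. The part of these marker and mitochondrial differences in the results was not tested.

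Small RNAs took 0.136% and 0.119% of the read pairs in WT, 0.113% and 0.126% in H19Ter/H19Ter, and 0.272%, 0.164% and 0.248% in H19Ter+neo/H19Ter+neo. The 3 H19Ter+neo/H19Ter+neo libraries lay above the other 4, as they did in the mitochondrial share. Much of this share came from Snora73b and Snora23. They held 95518 and 61297 of the 228696 small RNA read pairs in H19Ter+neo/H19Ter+neo replicate 5, and 26921 and 10783 of 61211 in WT replicate 1. Snhg genes and Gas5 took 0.0429% and 0.0476% in WT, 0.0357% and 0.0341% in H19Ter/H19Ter, and 0.0371%, 0.0339% and 0.0316% in H19Ter+neo/H19Ter+neo, so all 5 mutant libraries lay below both WT libraries. The mean over the 5 mutant libraries minus that of WT was 0.0571 percentage points for the small RNAs (exact permutation test over the 21 splits into 5 and 2 libraries, two-sided p = 0.333; 0.0352 without replicate 5, and 0.0610 as a share of the reads outside the mitochondrial genome) and -0.0108 for the host genes (p = 0.0476, the smallest this design allows).

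**Figure D1:**
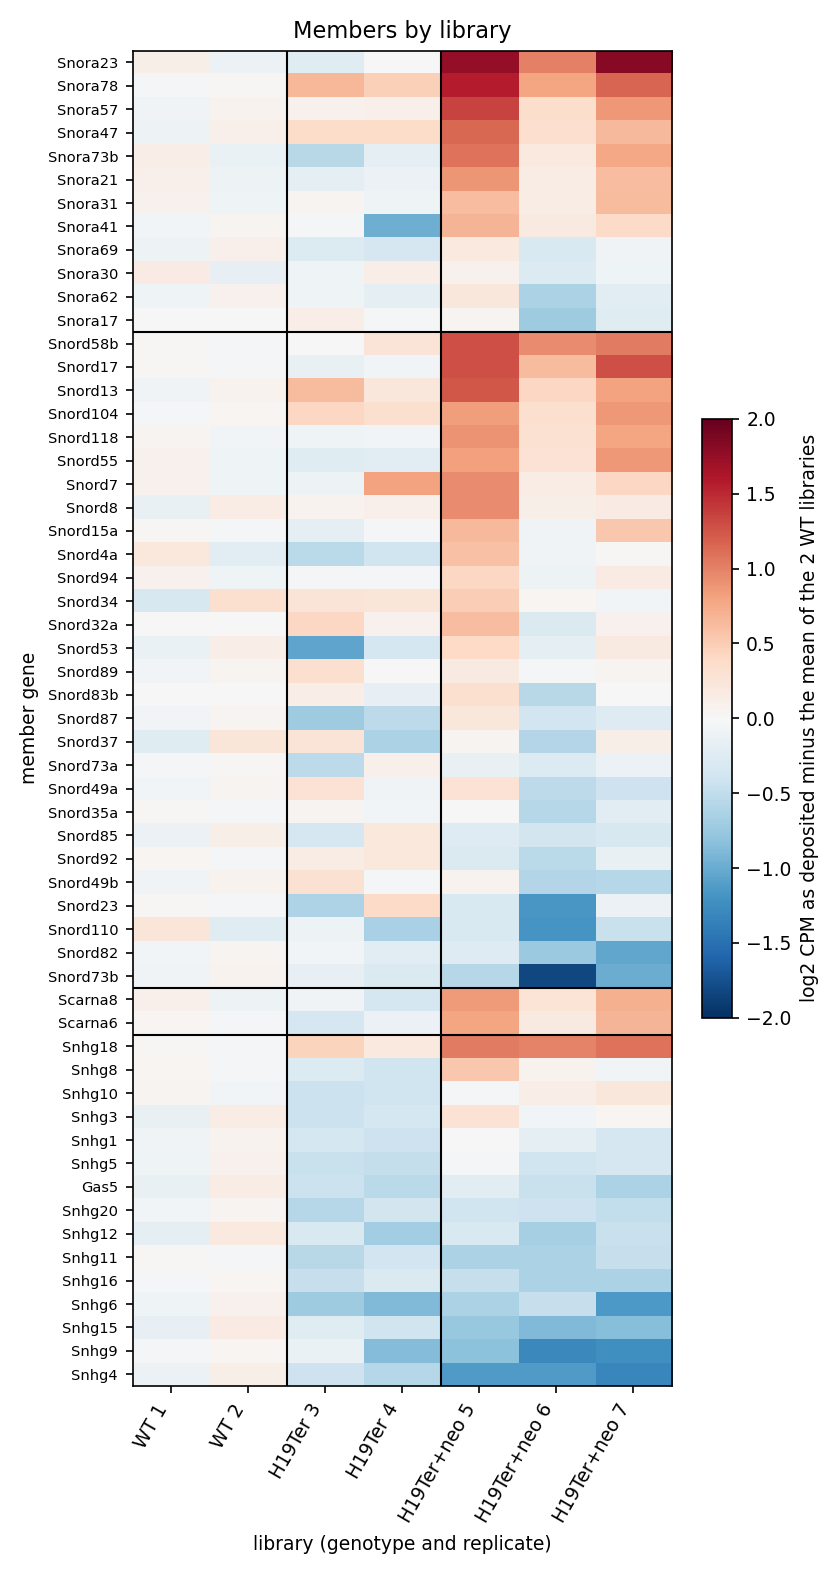
Heat map of the 57 members (rows, by family and then by the H19Ter+neo/H19Ter+neo difference from WT) in the 7 libraries (columns). Colour is the deposited log2 CPM minus the mean of the 2 WT libraries, with the scale ending at 2 in either direction. Many Snora rows and the upper Snord rows are red in the last 3 columns, and most Snhg rows are blue in all 5 mutant columns.

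Within H19Ter+neo/H19Ter+neo the small RNAs differed by library. Replicate 6 was the lowest of the 3 for 40 of 42 small RNAs and for 8 of 15 host genes, against 29.7% of all genes.

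Snora23 and Snora73b were the most abundant box H/ACA members, at mean levels of 2203 and 3274 CPM per kb of exon, whereas the Snhg genes and Gas5 had 1.42 to 27.2 CPM per kb. The median over the 42 small RNAs was 36.4 CPM per kb. Some lay within the range of the Snhg genes and Gas5, such as Snora47 at 3.21. Snora23 stood at 241 and 205 CPM in WT, 188 and 224 in H19Ter/H19Ter, and 752, 446 and 783 in H19Ter+neo/H19Ter+neo. Every H19Ter+neo/H19Ter+neo library was above every other, and Snora23 rose by 1.53 ± 0.20 (limma log2 difference ± SE, Benjamini-Hochberg adjusted p over all genes = 0.000162) from WT, or 2.88-fold, and by 1.64 ± 0.20 from H19Ter/H19Ter (limma adjusted p = 0.00042). Snora73b, the U17 RNA of 18S precursor processing, had 601 and 505 CPM in WT, 377 and 479 in H19Ter/H19Ter, and 1172, 628 and 938 in H19Ter+neo/H19Ter+neo. It rose by 0.68 ± 0.21 from WT (limma adjusted p = 0.0177) and by 1.06 ± 0.21 from H19Ter/H19Ter (limma adjusted p = 0.00475). An annotated near copy, Snora73a, is 98.0% identical over 202 bases, and an exon of another gene lies opposite Snora73b, so its count is uncertain.

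Snora78 had 4.31 and 4.42 CPM in WT, 6.95 and 6.11 in H19Ter/H19Ter, and 13.0, 7.58 and 9.87 in H19Ter+neo/H19Ter+neo. All 5 mutant libraries were above both WT libraries. The rise from WT was 1.18 ± 0.19 in H19Ter+neo/H19Ter+neo (limma adjusted p = 0.000633), while H19Ter/H19Ter had a difference of 0.57 ± 0.21 that missed the threshold (limma adjusted p = 0.0728). Snora57 (0.85 ± 0.22) and Snora21 (0.55 ± 0.18) also rose in H19Ter+neo/H19Ter+neo from WT, both with an annotated near copy of at least 95% identity. Snora41, with a near copy as well, had 6.86 and 7.32 CPM in WT, 6.89 and 3.59 in H19Ter/H19Ter, and 11.4, 8.02 and 9.24 in H19Ter+neo/H19Ter+neo. It rose only in the comparison of the mutants with each other (0.92 ± 0.24, limma adjusted p = 0.0176), where the 2 H19Ter/H19Ter libraries lay apart. The H19Ter+neo/H19Ter+neo difference of Snora41 from WT was 0.42 ± 0.24.

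In all, 5 of 12 Snora members rose from WT in H19Ter+neo/H19Ter+neo, none fell, and 7 did not pass (41.7% higher, against 27.7% of all genes). Both scaRNAs rose. Scarna6 had 16.2 and 15.3 CPM in WT, 12.5 and 14.5 in H19Ter/H19Ter, and 27.1, 17.9 and 25.3 in H19Ter+neo/H19Ter+neo, with a difference from WT of 0.55 ± 0.16 (limma adjusted p = 0.0139). Scarna8 had 4.04 and 3.53 CPM in WT, 3.61 and 2.97 in H19Ter/H19Ter, and 6.84, 4.57 and 6.19 in H19Ter+neo/H19Ter+neo. It had a difference from WT of 0.61 ± 0.19 (limma adjusted p = 0.0193) and all 3 H19Ter+neo/H19Ter+neo libraries above the other 4.

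**Figure D2:**
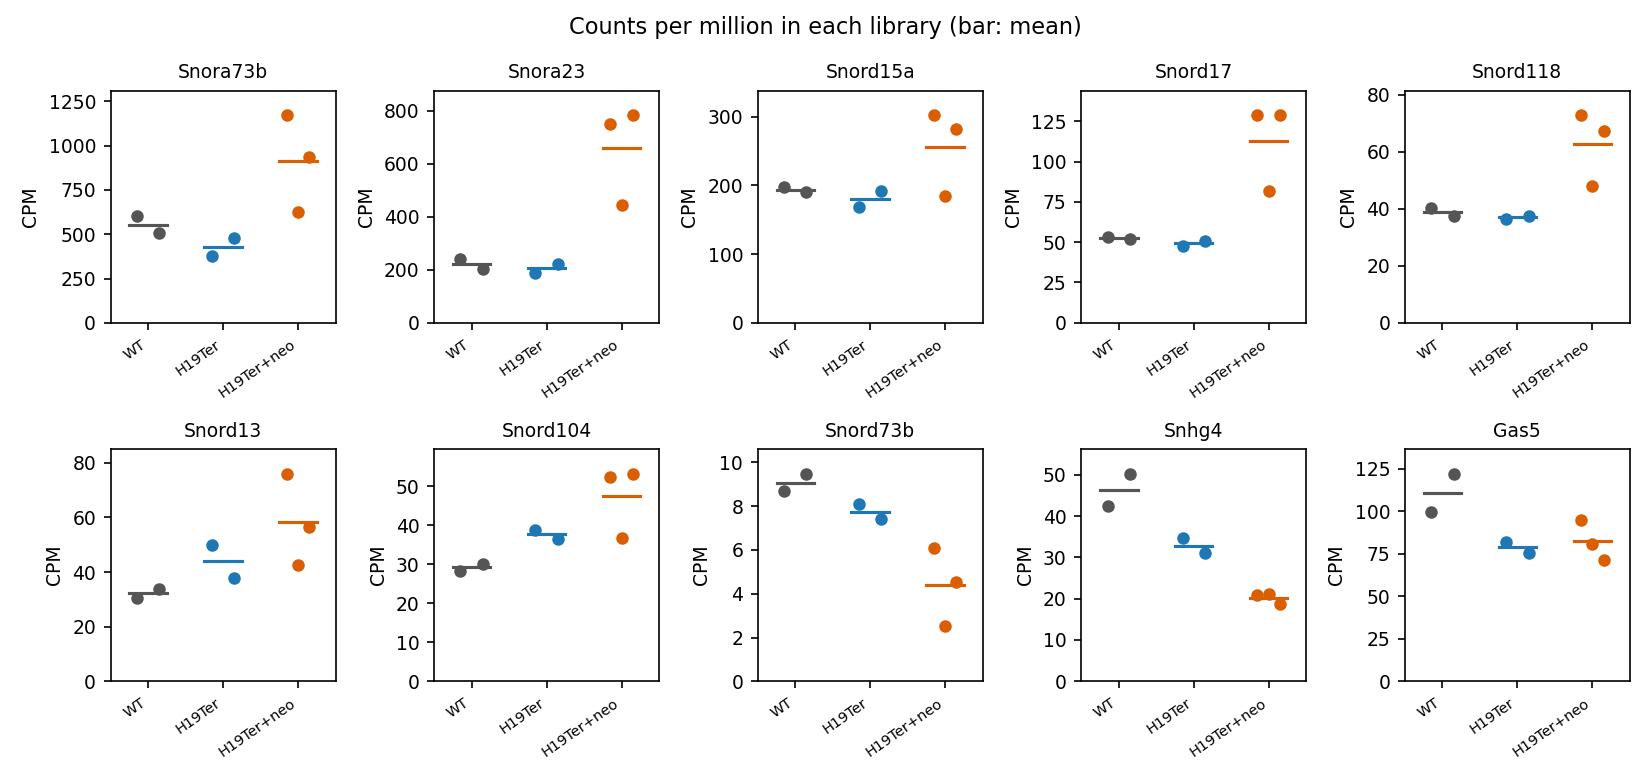
CPM (vertical axes, each from 0) of 10 members in each library by genotype, with a bar at each group mean. Snora23 and Snord17 lie higher in the 3 H19Ter+neo/H19Ter+neo libraries than in the other 4, Snord15a overlaps WT, Snord73b is lowest in H19Ter+neo/H19Ter+neo, and Snhg4 falls from WT through H19Ter/H19Ter to H19Ter+neo/H19Ter+neo.

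Among box C/D members, Snord15a and Snord17 had the highest CPM. Snord15a had 197 and 190 CPM in WT, 169 and 191 in H19Ter/H19Ter, and 302, 184 and 282 in H19Ter+neo/H19Ter+neo. With replicate 6 below WT, its difference from WT of 0.37 ± 0.17 did not pass (limma adjusted p = 0.0825). Snord17 had 53.5 and 51.7 CPM in WT, 47.5 and 50.9 in H19Ter/H19Ter, and 129, 82.0 and 129 in H19Ter+neo/H19Ter+neo. It rose by 1.07 ± 0.16 from WT (limma adjusted p = 0.000384), or 2.10-fold. Snord118, the U8 RNA needed for the 5.8S and 28S ends of the precursor, had 40.4 and 37.6 CPM in WT, 36.6 and 37.6 in H19Ter/H19Ter, and 72.7, 48.1 and 67.4 in H19Ter+neo/H19Ter+neo. The rise of Snord118 from WT was 0.67 ± 0.14 (limma adjusted p = 0.00308), and this gene has an annotated near copy.

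Snord13, the U13 RNA, had 30.6 and 33.8 CPM in WT, 50.0 and 37.8 in H19Ter/H19Ter, and 75.9, 42.7 and 56.3 in H19Ter+neo/H19Ter+neo. The 2 mutant groups overlapped, and only the difference of H19Ter+neo/H19Ter+neo from WT passed (0.82 ± 0.20, limma adjusted p = 0.00568). Snord104 showed the same order of groups, with 28.4 and 30.2 CPM in WT, 38.9 and 36.6 in H19Ter/H19Ter, and 52.5, 36.8 and 53.2 in H19Ter+neo/H19Ter+neo (difference from WT 0.68 ± 0.14, limma adjusted p = 0.0024). The low members Snord58b (1.09 ± 0.19) and Snord55 (0.66 ± 0.19) also rose.

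Snord73b went the other way. It had 8.69 and 9.48 CPM in WT, 8.11 and 7.40 in H19Ter/H19Ter, and 6.07, 2.55 and 4.54 in H19Ter+neo/H19Ter+neo, where every library was below all others. It fell by 1.13 on the log2 scale from WT (SE 0.28, limma adjusted p = 0.00639), whereas Snord73a in the same host had 2.17 and 2.22 CPM in WT and 1.97, 1.80 and 2.03 in H19Ter+neo/H19Ter+neo (-0.18 ± 0.21, limma adjusted p = 0.492). The 2 sequences printed above are 73.2% identical over 71 aligned positions. Their host Rps3a1 had 494 and 571 CPM in WT and 624, 430 and 623 in H19Ter+neo/H19Ter+neo (0.05 ± 0.15). Snord82, in nucleolin (Ncl), also fell (-0.69 ± 0.25, limma adjusted p = 0.0415), at 0.834 to 1.82 CPM over all libraries. Of 28 Snord members, 6 rose (21.4%, against 27.7% of all genes), 2 fell (7.14%, against 26.7%) and 20 did not pass.

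Over all 42 small RNAs, H19Ter+neo/H19Ter+neo against WT gave 13 higher (31.0%), against 27.7% of all genes, and 2 lower (4.76%), against 26.7% of all genes, so 35.7% of small RNAs and 54.4% of all genes passed. The share of higher calls was near that of all genes. Every H19Ter+neo/H19Ter+neo library lay above both WT libraries for 17 small RNAs (40.5%, against 36.6% of all genes) and below them for 7 (16.7%, against 35.2%). The median difference was 0.16, beside 0.01 for all genes. Without replicate 6, 15 rose and 1 fell, and without WT replicate 2, 8 passed in all.

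H19Ter+neo/H19Ter+neo against H19Ter/H19Ter gave 13 higher (31.0%, against 12.5% of all genes) and 1 lower (2.38%, against 15.2%), with 27.7% of all genes passing in either direction. Of the small RNAs, 11 were higher in both of these comparisons, which share the H19Ter+neo/H19Ter+neo libraries. The share of all genes higher in both was not counted, so this number has no background beside it. Without H19Ter/H19Ter replicate 3 or 4, the number that passed went from 14 to 5 or 8. In H19Ter/H19Ter against WT, 0 of 42 small RNAs passed in limma, against 25.1% of all genes (14.1% higher and 11% lower). At an unadjusted limma p under 0.05 there were 4, and limma voom also called 0. The differences ranged from -0.71 to 0.57 with a median of -0.06.

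**Figure D3:**
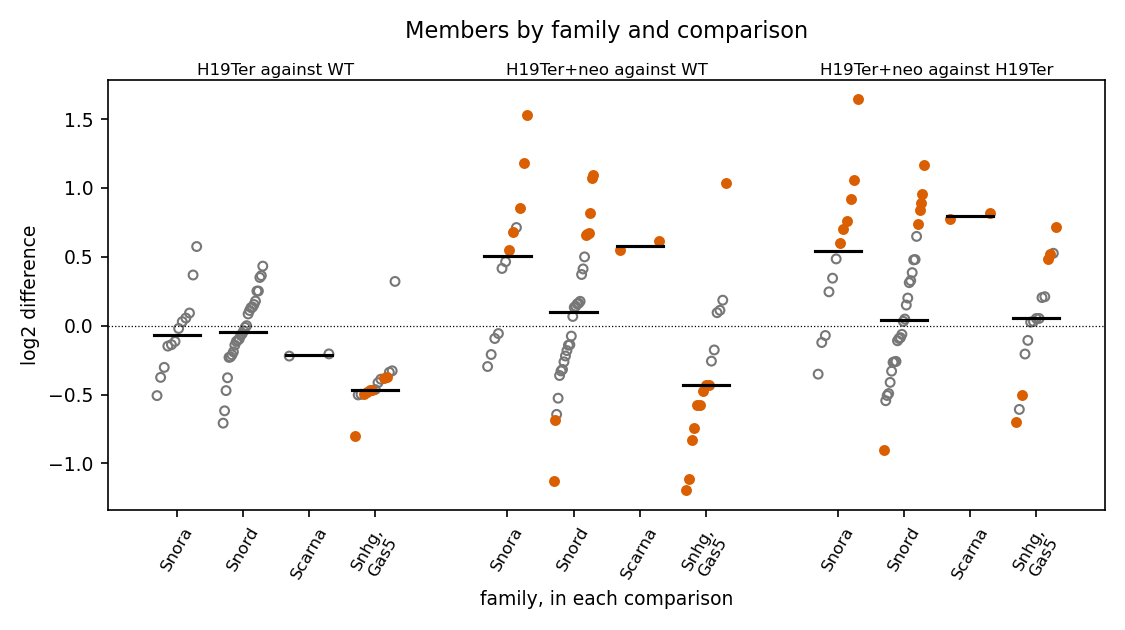
Log2 differences (vertical axis) of all 57 members by family in the 3 comparisons, filled where the limma adjusted p was under 0.05 and open where it was not, with a bar at the family median. In H19Ter/H19Ter against WT the filled points are 7 Snhg genes and Gas5 together, all below 0, and in H19Ter+neo/H19Ter+neo against WT they are mostly small RNAs above 0 and host genes below 0.

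Of the small RNAs, 25 passed in no comparison, with mean levels of 0.443 to 216 CPM. They were 6 Snora members (Snora17, Snora30, Snora31, Snora47, Snora62 and Snora69) and 19 Snord members (Snord4a, Snord7, Snord8, Snord15a, Snord23, Snord32a, Snord34, Snord35a, Snord37, Snord49a, Snord49b, Snord73a, Snord83b, Snord85, Snord87, Snord89, Snord92, Snord94 and Snord110). Snord49a and Snord49b, neighbours in the noncoding gene 2410006H16Rik and 70.7% identical over 75 aligned positions, stayed side by side. Snord49a had 15.1 and 16.2 CPM in WT, 19.1 and 14.9 in H19Ter/H19Ter, and 19.1, 10.8 and 11.7 in H19Ter+neo/H19Ter+neo. Snord49b had 15.7 and 17.5 CPM in WT, 20.5 and 16.1 in H19Ter/H19Ter, and 17.4, 11.1 and 11.2 in H19Ter+neo/H19Ter+neo, so that replicate 5 stood above replicates 6 and 7 for both. The 3 members within Rpl13a differed from WT by 0.14 ± 0.21 (Snord32a), 0.16 ± 0.23 (Snord34) and -0.26 ± 0.18 (Snord35a) in H19Ter+neo/H19Ter+neo. Snord53, one of the neighbours in Wdr43, had 2.21 and 2.65 CPM in WT, 1.15 and 1.88 in H19Ter/H19Ter, and 3.21, 2.14 and 2.73 in H19Ter+neo/H19Ter+neo, and rose between the mutants (0.84 ± 0.25, limma adjusted p = 0.0319), while Snord92 in the same host had -0.51 ± 0.23 there.

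The small RNAs that rose had features that the choice of members did not use, given here as a description. In H19Ter+neo/H19Ter+neo against WT the 13 that rose had a median length of 135 bases and a median WT level of 15.7 CPM, and the 27 that did not pass had 94 bases and 2.60 CPM. Of the 10 with the highest mean CPM in WT, 7 rose. Of the other 32, 6 rose and 2 fell. Of all genes, at any level, 27.7% rose and 26.7% fell, and genes of like level were not counted apart. Spearman's rho across the 42 small RNAs between the difference and length was 0.47, and between the difference and mean CPM in WT 0.29. Snora members had 128 to 205 bases and most Snord members fewer than 128, so length and family were not told apart. All points share the same 5 libraries, and the WT libraries enter both the level and the difference. Of 5 members with no annotated host, 4 rose, of 24 in hosts other than ribosomal protein genes 6 rose and 1 fell, and of 13 in ribosomal protein genes 3 rose and 1 fell. These counts too stand beside the 27.7% of all genes that rose and the 26.7% that fell.

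Host genes named Snhg, and Gas5, moved mostly down. In GENCODE vM21, exons of other genes on the same strand overlap many of them: 10 genes at Gas5, 8 at Snhg1, and 5 each at Snhg4 and Snhg12. Snhg1, Snhg8 and Snhg12 are annotated there as 1 exon, so their counts need not be spliced RNA alone. The part of this in the differences was not tested. In H19Ter/H19Ter against WT, 7 of 15 fell (46.7%, against 11% of all genes), none rose and 8 did not pass, with a median difference of -0.46 and 14 of 15 below 0. In H19Ter+neo/H19Ter+neo against WT, 9 fell (60%, against 26.7% of all genes), 1 rose and 5 did not pass, with a median of -0.43. All H19Ter+neo/H19Ter+neo libraries were below both WT libraries for 9 of the 15 (60%, against 35.2%). The 2 comparisons share the WT libraries. Leaving out WT replicate 2 took the count in H19Ter/H19Ter from 7 to 1, and leaving out H19Ter/H19Ter replicate 3 or 4 took it to 2 or 1. Without WT replicate 2, 6 host genes passed in H19Ter+neo/H19Ter+neo against WT instead of 10.

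Snhg4 was the member that fell in all 3 comparisons. It had 42.5 and 50.2 CPM in WT, 34.8 and 31.0 in H19Ter/H19Ter, and 20.9, 21 and 18.6 in H19Ter+neo/H19Ter+neo. None of the groups overlapped, with a fall of 0.49 on the log2 scale in H19Ter/H19Ter (SE 0.11, limma adjusted p = 0.0111) and of 1.19 in H19Ter+neo/H19Ter+neo (SE 0.10, limma adjusted p = 1.72e-05) from WT, and of 0.70 between the mutants (SE 0.10, limma adjusted p = 0.000966). Snhg15 had 18.3 and 23.2 CPM in WT, 17.3 and 15.5 in H19Ter/H19Ter, and 12.2, 11.2 and 11.4 in H19Ter+neo/H19Ter+neo. It fell by 0.83 on the log2 scale from WT in H19Ter+neo/H19Ter+neo (SE 0.12, limma adjusted p = 0.000237).

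Gas5, the noncoding host of many box C/D snoRNAs, had 99.6 and 122 CPM in WT, 82.2 and 75.6 in H19Ter/H19Ter, and 94.7, 80.7 and 71.4 in H19Ter+neo/H19Ter+neo. All 5 mutant libraries were below both WT libraries. It fell by 0.48 on the log2 scale in H19Ter/H19Ter (SE 0.13, limma adjusted p = 0.0232) and by 0.43 in H19Ter+neo/H19Ter+neo (SE 0.12, limma adjusted p = 0.0107). Snhg6, the host of Snord87 and opposite an exon of another gene, had 23.7 and 26.5 CPM in WT, 15.3 and 13.6 in H19Ter/H19Ter, and 16.1, 18.2 and 11.3 in H19Ter+neo/H19Ter+neo. It fell in both (-0.80 ± 0.19 and -0.75 ± 0.17). Snhg11, which fell in both too, had differences of -0.47 ± 0.09 and -0.57 ± 0.08, and Snhg12 fell in H19Ter+neo/H19Ter+neo (-0.47 ± 0.16).

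Snhg1 had 86.4 and 95.9 CPM in WT, 71.2 and 68.7 in H19Ter/H19Ter, and 91.9, 79.1 and 71.9 in H19Ter+neo/H19Ter+neo, and its fall passed in H19Ter/H19Ter (-0.38 ± 0.11, limma adjusted p = 0.0277). In H19Ter+neo/H19Ter+neo it overlapped WT (-0.18 ± 0.10). Snhg3, a host of Snora73b and likewise opposite another gene's exon, had 22.9 and 28.3 CPM in WT, 18.9 and 19.9 in H19Ter/H19Ter, and 31.1, 24.6 and 26.2 in H19Ter+neo/H19Ter+neo. It rose between the mutants (0.48 ± 0.12, limma adjusted p = 0.0147), as did Snhg8 (0.52 ± 0.16). Snhg18 was the member that rose from WT, from 2.01 and 1.93 CPM to 4.07, 3.95 and 4.2 in H19Ter+neo/H19Ter+neo (1.04 ± 0.16, limma adjusted p = 0.000402), with 2.69 and 2.27 in H19Ter/H19Ter. Between the mutants, 3 host genes rose (20%, against 12.5% of all genes) and 2 fell (13.3%, against 15.2%), and leaving out either H19Ter/H19Ter library left 2 in all.

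The remaining host genes were Snhg5, Snhg10, Snhg16 and Snhg20, and Snhg9, which fell in H19Ter+neo/H19Ter+neo from WT and is described with Snora78. Snhg16, opposite an exon of another gene, had 19.1 and 20.3 CPM in WT, 14.4 and 16.2 in H19Ter/H19Ter, and 14.4, 12.6 and 12.7 in H19Ter+neo/H19Ter+neo, and fell in both (-0.37 ± 0.11 and -0.57 ± 0.10). Snhg5 had 26.8 and 30 CPM in WT, 20.7 and 20.3 in H19Ter/H19Ter, and 27.7, 21.4 and 22.4 in H19Ter+neo/H19Ter+neo, and fell in H19Ter/H19Ter (-0.47 ± 0.13), whereas H19Ter+neo/H19Ter+neo overlapped WT. Snhg20 fell in H19Ter+neo/H19Ter+neo (-0.43 ± 0.14). Snhg10 passed in no comparison, at 0.977 to 1.56 CPM.

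Small RNAs and the genes that span them on their strand were then set side by side, which gave 39 pairs of 37 small RNAs with 34 hosts. In H19Ter+neo/H19Ter+neo against WT, 17 hosts fell, 4 rose and 13 did not pass, where 26.7% of all genes fell and 27.7% rose. The small RNA's difference was above its host's in 27 of 39 pairs, with a median of 0.58 between them. It was above in 27 of 39 pairs in each of the other comparisons as well, with a median of 0.12 in H19Ter/H19Ter against WT and 0.23 between the mutants. Across the pairs in H19Ter+neo/H19Ter+neo against WT, which share libraries and in part hosts, Spearman's rho of the 2 differences was 0.0068. In 5 pairs of that comparison the small RNA rose and the host fell: Snora21 with Rpl23, Snora23 with Ipo7, Snora73b with Rcc1, Snora78 with Snhg9, and Snord17 with Snx5. With 17 of the 34 hosts lower, such pairs also arise where small RNA and host are unrelated. The number to be had that way was not computed, so these pairs are a description only. Snord82 and Ncl both fell.

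Ipo7, which encodes a nuclear import factor, had 156 and 175 CPM in WT, 125 and 125 in H19Ter/H19Ter, and 142, 124 and 130 in H19Ter+neo/H19Ter+neo. It differed from WT by -0.33 ± 0.08 in H19Ter+neo/H19Ter+neo (limma adjusted p = 0.00443), where Snora23 inside it was 2.88-fold higher. Snhg9, also opposite another gene's exon, had 0.804 and 0.854 CPM in WT and 0.454, 0.321 and 0.336 in H19Ter+neo/H19Ter+neo (-1.11 ± 0.33, limma adjusted p = 0.0154), from 17 to 40 read pairs per library, while Snora78 inside it rose. Snx5, a sorting nexin, had 248 and 283 CPM in WT, 211 and 185 in H19Ter/H19Ter, and 222, 189 and 170 in H19Ter+neo/H19Ter+neo (-0.46 ± 0.11, limma adjusted p = 0.00458). Rcc1, the exchange factor of Ran, fell as well (-0.36 ± 0.07), whereas Snhg3, the other host of Snora73b, had 0.09 ± 0.12. In H19Ter/H19Ter against WT, 5 hosts fell and 2 rose of 34, where 11% of all genes fell and 14.1% rose, and no small RNA passed. Ipo7 (-0.40 ± 0.08, limma adjusted p = 0.00784) and Snx5 (-0.42 ± 0.12, limma adjusted p = 0.0268) were among the hosts that fell there. Snora23 differed by -0.11 and Snord17 by -0.10 in that comparison.

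**Figure D4:**
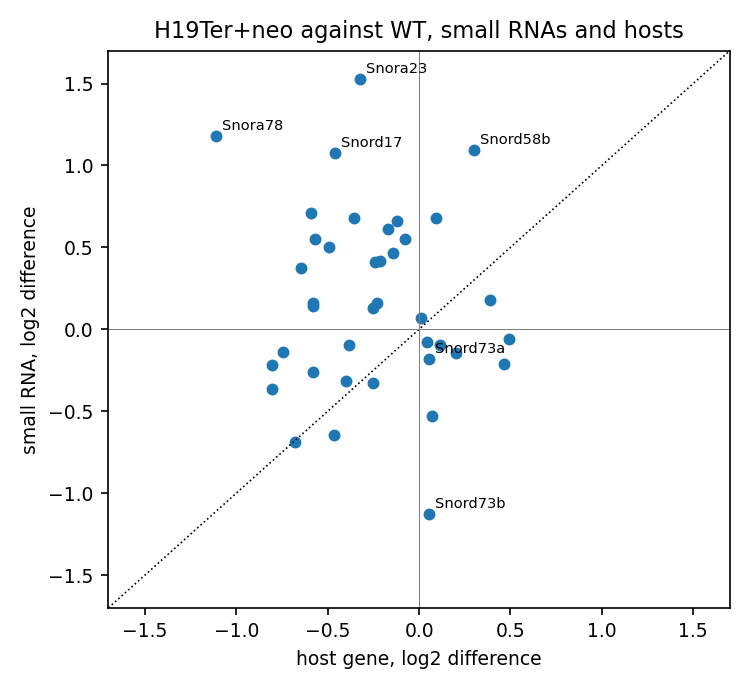
Log2 difference of the small RNA (vertical axis) against that of its host gene (horizontal axis) in H19Ter+neo/H19Ter+neo against WT for 39 pairs, with a dotted line of equal difference and 6 small RNAs named. Of the 39 points, 27 lie above the line, and Snord73b lies farthest below it.

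Genes of the pathway were counted from fixed lists, to be read beside the 26.7% of all genes that fell and the 27.7% that rose in H19Ter+neo/H19Ter+neo from WT. Of 4 box C/D core proteins, 3 fell in H19Ter+neo/H19Ter+neo from WT: the methyltransferase Fbl (-0.40 ± 0.09), Nop56 (-0.46 ± 0.09) and Nop58 (-0.62 ± 0.11). Of 4 box H/ACA core proteins, the pseudouridine synthase Dkc1 (-0.65 ± 0.15) and Gar1 (-0.74 ± 0.10) fell and 2 did not pass. Of 17 assembly and trafficking factors, 11 fell, the nucleolar proteins Nolc1 (-1.73 ± 0.11) and Tcof1 (-1.08 ± 0.08) by most, and Nufip1 rose (0.37 ± 0.07). In H19Ter/H19Ter against WT, Nop56, Nop58, Dkc1, Ruvbl2, Nolc1 and Coil fell, and no gene of these 3 lists rose, against 11% and 14.1% of all genes.

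Of 10 factors of snoRNA end and intron processing, 4 fell (40%, against 26.7% of all genes), among them Parn (-0.63 ± 0.10), and Xrn2 rose (0.25 ± 0.06) in H19Ter+neo/H19Ter+neo from WT. None of them passed in H19Ter/H19Ter in limma, where 3 had an unadjusted p under 0.05. Of 14 nonsense-mediated decay factors, which act on spliced host RNAs, 9 fell (64.3%, against 26.7%), including Upf1 (-0.78 ± 0.07) and Rbm8a (-0.73 ± 0.10), and Magoh rose (0.82 ± 0.09). Other small or structured noncoding RNAs and their hosts (66 genes) gave 16 higher (24.2%, against 27.7% of all genes) and 13 lower (19.7%, against 26.7%), with a median of 0.26. Rpph1, the RNA of RNase P (1.18 ± 0.22), and the Y RNA Rny1 (0.88 ± 0.15) were among those that rose. Library-wide handling of short RNAs was not tested as a part of these differences.

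Scaling bears on directions over all genes. Of genes that passed in H19Ter/H19Ter against WT, 56.2% were higher as deposited and 72.5% with the same total per library, and between the mutants the shares were 45.3% and 32.0%.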

How the data were processed

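Read trimming by the authors used Trim Galore 0.6.0, and gene counts came from STAR 2.7.8 alignments to mm10 (tools as the submitters' processing notes give them, beside deepTools and edgeR). The values the authors deposited are log2 CPM with a mean prior count of 2 reads. No source used here names the annotation or strand setting behind these counts. Undoing the logarithm gave whole read pairs for 100% of values (largest deviation 3.73e-09 of a read pair), which gave the CPM printed here. Those log2 values were fitted with limma 3.58.1 (R 4.3.3), with genotype as the factor, all 7 libraries and a mean-variance trend. P-values were two-sided and adjusted after Benjamini and Hochberg over 20643 genes, and a gene passed under 0.05, and the script was tested on simulated data. Libraries are the labels' replicates, and whether they came from separate litters is not given for each, so p-values measure the spread between these libraries. Hosts, lengths and sequences are from GENCODE vM21 (GRCm38), and near copies (at least 95% identity over 50 bases) from BLAST 2.17.0. The members and lists were chosen with earlier results of these data known. Members named were the 3 largest rises and falls per class and comparison that passed at a mean log2 CPM of at least 1 without overlap, the 5 highest per class, and fixed Snhg genes with the small RNAs they hold. Other members were named after their values were seen, to account for all 57, and the printed sequences, the descriptions by length, level and host, and the near copies were chosen then too. Alternatives were other scalings, prior counts, a filter, limma without the trend, limma voom, thinning, 2-genotype fits and leaving out each library. Columns of per-sample values that were not used numbered 0.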

Additional observations from a re-analysis of the deposited data

How the results depend on the processing

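Small RNAs that passed in H19Ter/H19Ter against WT numbered 0 as reported, 2 with the same total per library, 4 in a fit of the 2 genotypes only, and 0 to 2 with 1 library left out. Host genes that passed there numbered 7 as reported, 2 in limma without the trend, 4 in limma voom, and 1 to 9 with 1 library left out. Small RNAs that passed in H19Ter+neo/H19Ter+neo against WT numbered 15, and 8 to 17 with 1 library left out, and host genes 10, and 6 to 12. Between the mutants, small RNAs numbered 14, 9 without the trend and 5 to 18 with 1 library left out, and host genes 5, and 2 to 6. The change of the host gene share ranged from -0.0131 to -0.00840 percentage points with 1 library left out, with an exact permutation p of 0.0667 or 0.167, the smallest those designs allow. That of the small RNA share ranged from 0.0352 to 0.0749. The cause of these changes was not tested.

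Of 1296 values of the 27 named members under alternatives, 1170 kept direction and side of the threshold, 81 lost the call, 30 gained it and 15 changed sign. None of the 15 was called under either setting. With the same total per library these were Snord118 in H19Ter/H19Ter against WT (0.0089), and between the mutants Gas5 (-0.015), Snhg12 (-0.042) and Snhg6 (-0.015). With 1 library left out, Snora23 in H19Ter/H19Ter against WT ranged from -0.24 to 0.0095 and Snhg3 in H19Ter+neo/H19Ter+neo against WT from -0.058 to 0.25. Between the mutants, Gas5 ranged from -0.054 to 0.15, Snhg12 from -0.17 to 0.23 and Snhg6 from -0.090 to 0.25.

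With 2 or 3 libraries a group, small differences could go undetected, most of all in members with few read pairs. The lowest member had 13 to 60 read pairs. Without 1 library, a group of 1 was assumed to vary like the others. No paired analysis was possible because the groups share no replicate numbers.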
